A study of Mus musculus with 24 samples.

Results

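Livers of mice that lack the nuclear receptors CAR and PXR together were compared with wild-type (WT) livers after phenobarbital, on 12 of the 24 two-colour arrays of the study. Members were taken by their labelled genotype: 6 arrays of CAR/PXR-deficient mice and 6 arrays of WT mice. All were male C57BL/6J mice, injected intraperitoneally with phenobarbital at 100 mg/kg and killed 12 h later. The CAR/PXR-deficient mice were 9 to 12 weeks old, and the labels give no age for WT mice. On every array the treated liver was labelled with Cy5, and Cy3 carried pooled RNA of 6 vehicle-injected (5% DMSO in corn oil) livers of that genotype. The response of a probe is the log2 ratio of Cy5 to Cy3, so a positive response means a higher level after phenobarbital. How either receptor gene was deleted and whether the deficient mice were littermates of the WT mice are not stated in the sources used here. The Cy3 channel of WT replicate 1 is tagged as phenobarbital, but its source name and protocol describe vehicle, and it was taken as the vehicle pool.

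CAR (gene Nr1i3) and PXR (gene Nr1i2) are nuclear receptors of the liver that sense foreign compounds. Both pair with the retinoid X receptor on DNA and switch on cytochrome P450 enzymes, conjugating enzymes and transporters that clear drugs and bile acids. Phenobarbital activates CAR mainly by an indirect route, in which the receptor moves from the cytoplasm to the nucleus, and a loss of both receptors removes this route together with the overlapping one through PXR. The array is a small design, Sterolgene V1, made for genes of cholesterol and drug metabolism. It holds 120 mouse probes in 3 copies each. No table used here links the probes to genes, so they are given by number, no gene, pathway or cell type of the results is named, and neither the receptors' own transcripts nor liver markers could be checked.

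Testing required 2 or more spots of a probe to exceed their local background by 2 SD, in either channel, on 12 or more of the 24 arrays; 80 probes met this and 40 did not. Precision is limited by the 6 arrays per genotype. CAR/PXR-deficient arrays had a median of 93 probes above background (range 79 to 109), against 56 (44 to 115) on WT arrays. A ratio was measured on all 6 CAR/PXR-deficient arrays for 66 of the 80 tested probes, against 41 of 80 for all 6 WT arrays. Ratios used only unflagged spots, and 19.7 to 40.8% of the probe spots were flagged on CAR/PXR-deficient arrays. On WT arrays the share ran up to 66.4%, but WT replicate 6 had 0% flagged, so it gave a ratio for all 120 probes although 55 were above background. Nothing in the labels says that replicates came from different animals, and p-values cover only the spread between these samples. Several arrays stood apart. WT replicate 1 had a treated median intensity of 4214.5, against 243 to 701.5 on the other WT arrays. It had 115 probes above background, against 44 to 58 on those. The median probe lay 2.01 and 2.25 above the calibration spike-ins (log2 ratio) on CAR/PXR-deficient replicates 1 and 2, against 0.51 to 0.95 on the other CAR/PXR-deficient arrays and -0.74 to 0.22 on WT arrays. WT replicates 2 and 6 were nearly alike (r = 0.98 over 45 shared probes, as a description). They gave both the highest or both the lowest responses of their group for 25 of the 41 probes measured on all 6 WT arrays.

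The response differed between CAR/PXR-deficient and WT livers for 10 of the 80 tested probes (12.5%) at an adjusted p under 0.05, and 24 had an unadjusted p under 0.05. Of these 10 probes, 4 (5%) had a higher response in CAR/PXR-deficient livers than in WT livers and 6 (7.5%) a lower response. Each genotype had 1 vehicle pool, so these tests leave out the spread between vehicle animals. The fit took its spread from all 4 genotypes. With only the 2 compared groups fitted, 4 probes passed, 2 higher and 2 lower, and 15 had an unadjusted p under 0.05. With the nearly alike WT replicates 2 and 6 counted once, 7 probes passed, 3 higher and 4 lower. Mm042, Mm102, Mm133 and Mm157 then missed (adjusted p = 0.0612, 0.0666, 0.0612 and 0.0880, limma), and Mm052 passed (adjusted p = 0.0297). The largest changes were those of Mm038 and Mm039, which rose strongly after phenobarbital in WT livers, and of Mm061, which rose in CAR/PXR-deficient livers. Over all tested probes the difference in response had a median of -0.06 and a median size of 0.32 on the log2 scale. The arrays with a value did not overlap between the 2 genotypes for 7 of the 80 tested probes (8.75%), 3 higher (3.75%) and 4 lower (5%). Among these 7, 4 were also among the 10 that differed: Mm038, Mm039, Mm061 and Mm062. Of these 4, only Mm061 and Mm062 had a value on all 6 arrays of both genotypes. These responses are relative to the other probes of each array. Centred on the spike-ins instead, 74 probes passed, of which 72 were higher in CAR/PXR-deficient livers and 2 lower; 61 passed in the deposited value table, of which 60 were higher and 1 lower. The median difference over the tested probes shifted to 1.45 under spike-in centring and to 1.52 in the deposited table. With spike-ins the differences of Mm038 and Mm039 were -1.74 and -1.41 (adjusted p = 0.00107 and 0.00343), and in the table they were -0.83 and -0.56 and did not pass (adjusted p = 0.102 and 0.297). Relative to that shift Mm038 was at -3.18 with spike-ins and -2.35 in the table, Mm039 at -2.85 and -2.08, Mm061 at 2.08 and 2.12, Mm062 at 0.78 and 1.01, Mm098 at 0.59 and 0.65, and Mm042 at -0.0032 and 0.24. The differences of Mm027, Mm133, Mm157 and Mm102 turned positive under both. Relative to the shift they were -1.18, -0.48, -0.73 and -0.40 with spike-ins and -0.94, -0.30, -0.32 and -0.06 in the table. Spike-in centring moves all probes of an array by the same amount. Taking out the shift therefore largely returns the median-centred values, so the spike-in values relative to it are no separate check of direction.

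**Figure D1:**
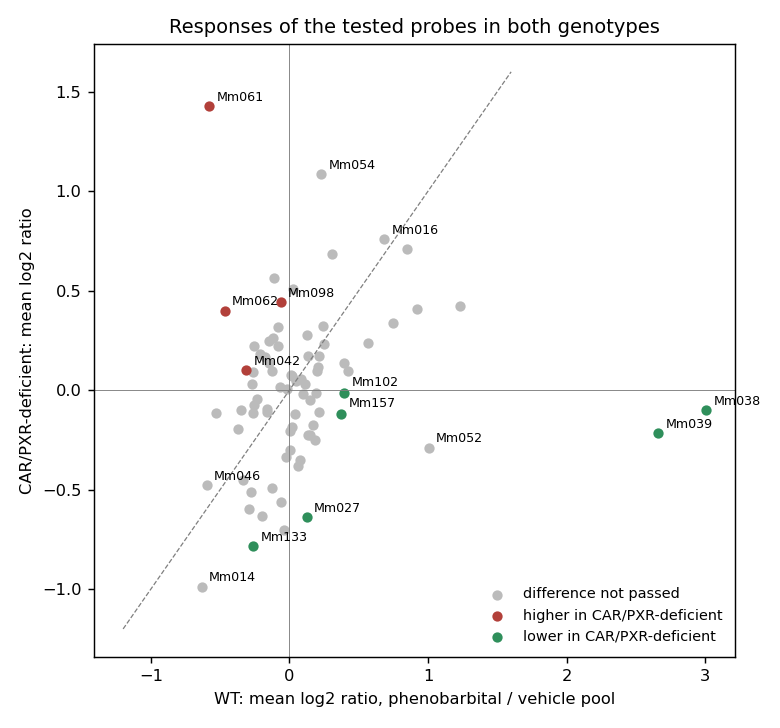
Mean log2 response to phenobarbital of each tested probe in CAR/PXR-deficient livers (vertical axis) and in WT livers (horizontal axis), 1 point per probe. The dashed line marks equal responses; red points had a higher and green points a lower response in CAR/PXR-deficient livers at an adjusted p under 0.05, and grey points did not pass. Mm038 and Mm039 lie far to the right near a CAR/PXR-deficient response of 0, and Mm061 lies at the top left.

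Mm038 and Mm039 carried the strongest phenobarbital responses in WT livers and showed none that passed in CAR/PXR-deficient livers. Mm038 gave a usable ratio on 3 CAR/PXR-deficient arrays, where it was -1.18, -0.22 and 1.09, against 1.87, 3.06 and 3.92 as the lowest, median and highest of 6 WT arrays. Every WT array was above every CAR/PXR-deficient array with a value. The response averaged -0.10 ± 1.14 (SD, n = 3) in CAR/PXR-deficient livers and 3.01 ± 0.75 (n = 6) in WT livers, a difference of -3.11 (SE 0.50, adjusted p = 0.000347, limma). Mm039 behaved alike, with -1.27, -0.23 and 0.85 on 3 CAR/PXR-deficient arrays, against 1.58, 2.87 and 3.27 (lowest, median and highest) on WT arrays. Its difference was -2.88 (SE 0.43, adjusted p = 0.000193). The CAR/PXR-deficient values of both probes came from replicates 1, 3 and 4, and each of these means spans 0.

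The missing CAR/PXR-deficient ratios of this pair go with weak spots. In the treated channel, Mm038 and Mm039 were each above background on 2 of 6 CAR/PXR-deficient arrays, against 6 of 6 WT arrays. In the vehicle pool channel, each was above background on 3 of 6 CAR/PXR-deficient arrays, against 1 of 6 WT arrays. Their WT ratios thus set a bright treated spot against a pool spot that was mostly not above background, so the sizes of these differences in response are not exact and no fold is given. Without CAR/PXR-deficient replicates 1 and 2 the differences were -2.57 (adjusted p = 0.00495) for Mm038 and -2.35 (adjusted p = 0.00195) for Mm039, each then from 2 CAR/PXR-deficient arrays.

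Mm061 and Mm062 had a higher response in CAR/PXR-deficient livers, with no overlap between the genotypes. For Mm061 the lowest, median and highest responses were 0.82, 1.35 and 1.85 on CAR/PXR-deficient arrays, against -2.11, -0.12 and 0.30 on WT arrays. It was positive on 6 of 6 CAR/PXR-deficient arrays and on 2 of 6 WT arrays. The difference was 2.004 (SE 0.35, adjusted p = 0.000193), a 4.01-fold higher ratio. The WT values fell into -0.22 to 0.30 on 4 arrays and -1.47 and -2.11 on the nearly alike replicates 2 and 6. Without those 2 arrays the difference was 1.397 (adjusted p = 0.000864), and the treated channel of Mm061 was above background on 4 of 6 WT arrays.

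Mm062 was the only probe of the 80 whose response passed the test in opposite directions. Its lowest, median and highest responses were -0.10, 0.47 and 0.76 on CAR/PXR-deficient arrays, against -0.61, -0.50 and -0.29 on WT arrays. It was positive on 5 of 6 CAR/PXR-deficient arrays and negative on 6 of 6 WT arrays. The mean response was 0.40 ± 0.31 (SD, n = 6; adjusted p = 0.00292 against 0, limma) in CAR/PXR-deficient livers and -0.47 ± 0.13 (n = 6; adjusted p = 0.00081) in WT livers. Their difference of 0.87 (SE 0.14, adjusted p = 0.000148) had the lowest p of all tested probes. Mm062 was above background in both channels on all 12 arrays.

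The other 6 probes that changed differed by less than 1 on the log2 scale, and the arrays of the genotypes overlapped for each. Mm098 rose in CAR/PXR-deficient livers, with responses of 0.09, 0.48 and 0.67 (lowest, median and highest), against -0.35, -0.09 and 0.25 in WT livers, and a difference of 0.50 (SE 0.13, adjusted p = 0.0170). Mm042 had a response of -0.09, 0.09 and 0.32, against -0.53, -0.35 and 0.05 in WT livers, and fell after phenobarbital in WT livers alone at the threshold. Its difference was 0.41 (SE 0.12, adjusted p = 0.0248), and under median centring it was 0.01. Among the probes with a lower response, Mm027 was negative on all 6 CAR/PXR-deficient arrays (-1.15, -0.56 and -0.19), against 4 positive and 2 negative WT arrays (-0.53, 0.32 and 0.62), with a difference of -0.76 (SE 0.21, adjusted p = 0.0191). Mm133 was also negative on all 6 CAR/PXR-deficient arrays (-1.24, -0.83 and -0.08), against -0.70, -0.30 and 0.30 on WT arrays, and differed by -0.53 (SE 0.17, adjusted p = 0.0463).

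Mm102 and Mm157 rose in WT livers and lay near 0 in CAR/PXR-deficient livers. Mm102 gave -0.33, -0.02 and 0.22 in CAR/PXR-deficient livers, against 0.10, 0.36 and 0.80 in WT livers, with 6 of 6 WT arrays positive. Its difference was -0.41 (SE 0.12, adjusted p = 0.0298). Mm157 lay within -0.21 to -0.06 on the 6 CAR/PXR-deficient arrays, against -0.16 to 0.88 on WT arrays, and differed by -0.49 (SE 0.16, adjusted p = 0.0463). The calls of these 6 probes depended on the arrays used: without CAR/PXR-deficient replicates 1 and 2 only Mm098 among them passed, and without WT replicates 2 and 6 only Mm027 did.

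**Figure D2:**
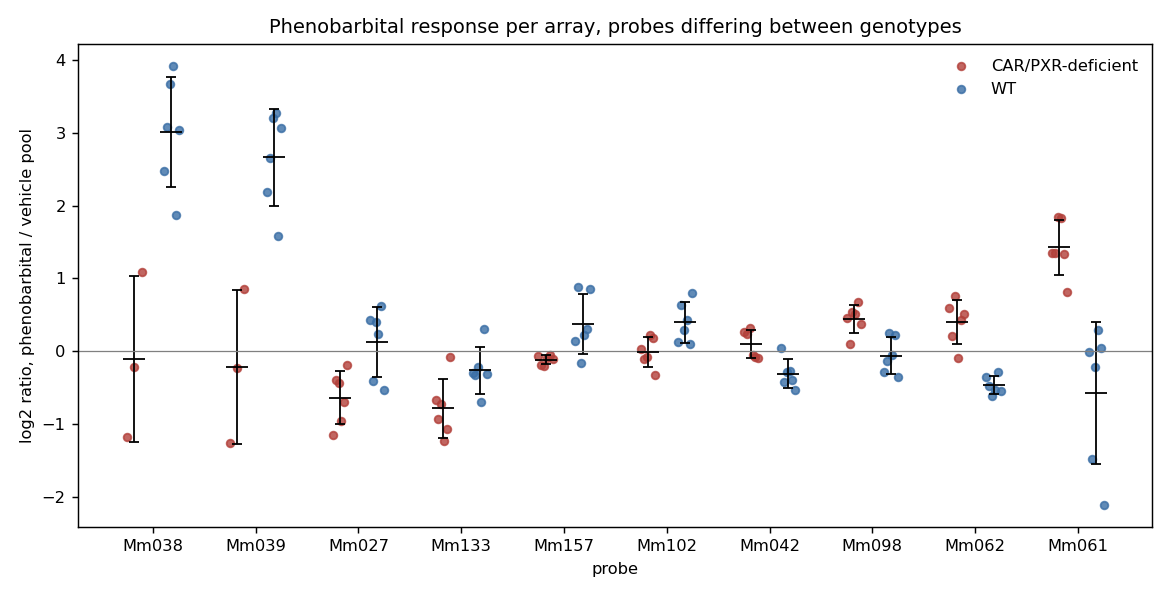
Log2 response to phenobarbital on each array for the 10 probes that differed, with CAR/PXR-deficient arrays (red) left of WT arrays (blue). Bars are means ± SD over the arrays with a value (3 CAR/PXR-deficient arrays for Mm038 and Mm039, otherwise 6 a group). The groups are apart for Mm038, Mm039, Mm061 and Mm062, and 2 WT arrays of Mm061 lie at -1.47 and -2.11.

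The 5 probes with the lowest p among those that missed the threshold were Mm052, Mm030, Mm015, Mm054 and Mm005. Mm052 gave -0.56 and -0.02 on the 2 CAR/PXR-deficient arrays with a ratio, against 0.29, 0.39, 1.29 and 2.06 on 4 WT arrays. These values did not overlap, and the difference was -1.30 (SE 0.41, adjusted p = 0.0505). Mm052 was above background in both channels on all 6 arrays of each genotype, so its missing ratios come from flagged spots and not from dim ones. With the flagged spots of all arrays kept, the difference of Mm052 was -1.74 (adjusted p = 7.22e-05). That value brings back spots whose flags have no stated meaning. Mm030 averaged 0.26 ± 0.11 (SD, n = 6) in CAR/PXR-deficient livers and -0.12 ± 0.22 (n = 5) in WT livers, a difference of 0.38 (adjusted p = 0.0512). Mm015, Mm054 and Mm005 differed by -0.37, 0.85 and 0.67, with adjusted p-values of 0.0618, 0.0632 and 0.0883. In the treated channel Mm030, Mm054 and Mm005 were above background on all 6 CAR/PXR-deficient arrays, against 3, 3 and 2 WT arrays.

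Set against 0, the response itself passed for 27 of the 80 tested probes (33.8%) in CAR/PXR-deficient livers, where 13 rose (16.2%) and 14 fell (17.5%). In WT livers it passed for 20 of 80 (25%), of which 12 rose (15%) and 8 fell (10%). These tests leave out the spread between vehicle animals, since each genotype had 1 pool, and a dye bias of a probe, since no array was dye-swapped, does not cancel in a response. Centred on the spike-ins, 74 probes rose and 0 fell in CAR/PXR-deficient livers, against 5 and 10 in WT livers; the deposited table gave 74 and 0, against 3 and 0. Of the 12 probes that rose in WT livers, only Mm016 also rose in CAR/PXR-deficient livers, at 0.76 ± 0.61, against 0.68 ± 0.20 in WT livers (SD, n = 6 each), a difference of 0.07 (SE 0.22, adjusted p = 0.813). The difference between genotypes passed for 4 of the 12, namely Mm038, Mm039, Mm102 and Mm157, and it was not shown for the other 8.

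Among those other 8, the WT response was largest for Mm144, Mm052 and Mm037. Mm144 averaged 0.42 ± 0.56 (SD, n = 5) in CAR/PXR-deficient livers and 1.23 ± 0.90 (n = 2) in WT livers, with an adjusted p of 0.166 for the difference of -0.81. The WT values of Mm144 were 0.59 on replicate 1 and 1.87 on replicate 6, and in each channel it was above background on 3 of 6 CAR/PXR-deficient arrays and 1 of 6 WT arrays. Mm037 averaged 0.41 ± 0.19 in CAR/PXR-deficient livers and 0.92 ± 0.67 in WT livers (n = 6 each), a difference of -0.51 (adjusted p = 0.161). Mm050 and Mm155 averaged 0.34 and 0.24 in CAR/PXR-deficient livers, against 0.75 and 0.56 in WT livers, with adjusted p-values of 0.161 and 0.151 for the difference. Mm051 and Mm104 averaged 0.10 and 0.14, against 0.43 and 0.40 in WT livers, with adjusted p-values of 0.246 and 0.209. These probes were chosen by their rise in WT livers, so the direction of their differences is a description.

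Of the 8 probes that fell in WT livers, 2 also fell in CAR/PXR-deficient livers, Mm062 rose there and 5 did not pass. Mm014 averaged -0.99 ± 0.57 (SD, n = 6) in CAR/PXR-deficient livers and -0.63 ± 0.49 (n = 5) in WT livers. Mm046 averaged -0.48 ± 0.46 in CAR/PXR-deficient livers and -0.59 ± 0.29 in WT livers (n = 6 each). Neither differed between genotypes at the threshold (adjusted p = 0.273 and 0.663). The difference passed for Mm062 and Mm042 among the 8.

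Among the probes whose response passed in CAR/PXR-deficient livers, the difference from WT livers passed for 3 of the 13 that rose (Mm061, Mm062 and Mm098) and 2 of the 14 that fell (Mm027 and Mm133). The WT response did not pass for 11 of the 13 and 12 of the 14, beside 60 of all 80 tested probes (75%) that did not pass in WT livers. After Mm061, the next highest mean was that of Mm054, at 1.09 ± 0.88 (SD, n = 6) in CAR/PXR-deficient livers and 0.23 ± 0.46 (n = 5) in WT livers. Several of these probes had few WT values: Mm012, Mm013, Mm024, Mm084, Mm085 and Mm093 had a ratio on 2 WT arrays each, replicate 1 and the unflagged replicate 6. In the treated channel Mm024 was above background on 3 of 6 WT arrays and the other 5 on 1 of 6.

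The channels were then read apart, since a ratio can differ between genotypes through the treated livers or through the vehicle pool. In the treated channel, the normalized log2 level in CAR/PXR-deficient livers differed from that in WT livers for 13 of the 80 tested probes (16.2%). It was higher for 7 (8.75%) and lower for 6 (7.5%), and 28 had an unadjusted p under 0.05. After quantile normalization of both channels 21 passed, 16 higher and 5 lower, and after median centring 20 passed, 16 higher and 4 lower. The arrays of the genotypes did not overlap for 5 of the 80 tested probes (6.25%), 1 higher (1.25%) and 4 lower (5%), of which Mm038, Mm039 and Mm098 passed the test. Treated Mm038 had a level of 7.74, 8.37 and 9.14 (lowest, median and highest) in CAR/PXR-deficient livers, against 11.74, 12.56 and 12.88 in WT livers. The difference was -4.04 (SE 0.24, adjusted p = 1.51e-13). Treated Mm039 had 7.72, 8.28 and 9.30 in CAR/PXR-deficient livers, against 11.92, 12.14 and 12.36 in WT livers, a difference of -3.77 (SE 0.25, adjusted p = 1.57e-12). Since each was above background on only 2 of 6 CAR/PXR-deficient arrays in this channel, the low side of these differences is mostly background and no fold is given. Fewer cells of a type and less RNA per cell cannot be told apart in whole liver.

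Mm098 was the third probe that passed both in the treated level and in the response. Its treated level was 10.65, 10.83 and 10.99 in CAR/PXR-deficient livers, against 9.66, 10.27 and 10.58 in WT livers, a difference of 0.58 (SE 0.19, adjusted p = 0.0361). The pools differed by 0.08 for this probe. For all 13 probes that passed in the treated level the pool differed in the same direction, beside 57 of all 80 tested probes. For Mm038 and Mm039 the pool spots exceeded background on only 3 of 6 CAR/PXR-deficient and 1 of 6 WT arrays. The 10 probes besides Mm038, Mm039 and Mm098 did not pass in the response, with a pool difference of the same sign as the treated one.

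Mm149 and Mm046 show that pattern among the higher probes. Mm149 had a treated level of 10.27, 11.33 and 11.64 in CAR/PXR-deficient livers, against 9.86, 10.18 and 10.82 in WT livers (difference 0.92, SE 0.23, adjusted p = 0.0125), and its pool differed by 1.15. Mm046 had 11.66, 12.54 and 12.75 in CAR/PXR-deficient livers, against 11.34, 11.71 and 12.22 in WT livers (difference 0.69, SE 0.18, adjusted p = 0.0150), and its pool differed by 0.58. The remaining higher probes were Mm054 (1.22 treated, 0.33 pool), Mm088 (0.70 treated, 0.35 pool), Mm047 (0.62 treated, 0.50 pool) and Mm072 (0.61 treated, 0.22 pool). Mm088 and Mm054 were above background in the treated channel on 2 and 3 WT arrays.

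Among the lower probes, Mm016 had a treated level of 10.89, 11.56 and 12.53 in CAR/PXR-deficient livers, against 11.66, 12.74 and 13.04 in WT livers. Its treated difference was -0.86 (SE 0.25, adjusted p = 0.0304) and its pool difference -0.93. A probe that rose after phenobarbital in both genotypes thus read lower on CAR/PXR-deficient arrays in either channel. Mm056, Mm150 and Mm077 differed by -1.01, -0.81 and -0.60 in the treated level and by -0.58, -0.37 and -0.62 in the pool. Apart from Mm038 and Mm039, the treated calls rested on few arrays. Without CAR/PXR-deficient replicates 1 and 2, 4 probes passed (Mm038, Mm039, Mm046 and Mm149), and without WT replicates 2 and 6, Mm038 and Mm039 alone of the 13 did.

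**Figure D3:**
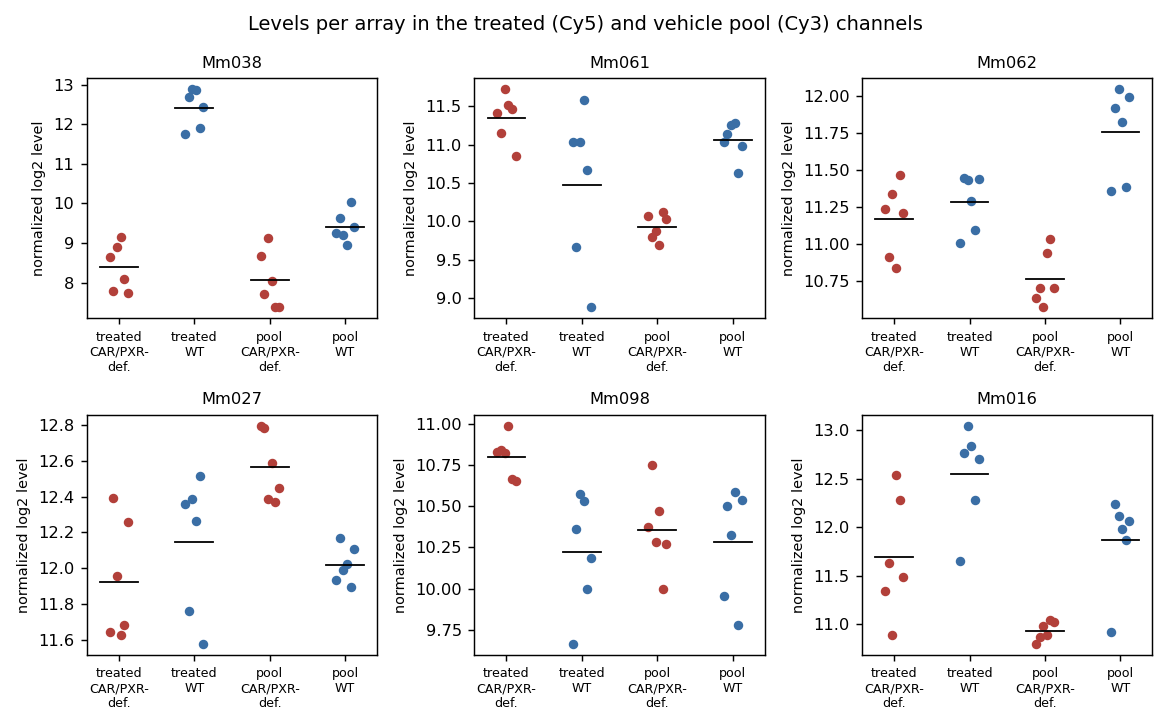
Normalized log2 levels of 6 probes on each array, in the order treated CAR/PXR-deficient, treated WT, vehicle pool of CAR/PXR-deficient and vehicle pool of WT livers; lines are means, and vertical axes differ between panels. For Mm038 the treated CAR/PXR-deficient arrays (7.74 to 9.14) lie far below the treated WT arrays (11.74 to 12.88). For Mm062 the gap between the genotypes after loess normalization lies in the pool.

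The vehicle pools were described without a test, because 1 pool per genotype was repeated on its 6 arrays. The means of the pools differed by more than 1 on the log2 scale for 5 of the 80 tested probes (6.25%). Of these, 2 were higher in the CAR/PXR-deficient pool (2.5%), Mm149 at 1.15 and Mm052 at 1.09, and 3 were lower (3.75%), Mm061 at -1.13, Mm038 at -1.36 and Mm039 at -1.49. In the pool the spots of Mm038 and Mm039 exceeded background on 3 of 6 CAR/PXR-deficient and 1 of 6 WT arrays, so the values of this pair are no measured difference in level. Under median centring 13 probes differed by that much, 10 higher and 3 lower. Over all tested probes the median size of the difference was 0.40 in the pool and 0.29 in the treated channel. The arrays of the genotypes did not overlap in the pool level for 20 of the 80 tested probes (25%), 11 higher (13.8%) and 9 lower (11.2%). The difference had the same sign in both channels for 57 of 80 probes and was larger in the pool for 48 of 80.

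After loess normalization, the larger difference lay in the treated livers for 5 of the 10 probes whose response differed, and in the pool for the other 5. Mm062 had a pool level of 10.58, 10.70 and 11.04 (lowest, median and highest) in CAR/PXR-deficient arrays, against 11.36, 11.87 and 12.04 in WT arrays, a gap of -0.99, while its treated levels differed by -0.12 (adjusted p = 0.695). On this scaling the genotypes overlapped in the treated level of Mm062, and the pool levels lay apart. Each pool was 1 RNA repeated on its arrays. How a difference splits between the channels also depends on the scaling, since loess centres the ratios of each array. With spike-ins the difference in the response of Mm062 was 2.22. Mm061 combined a pool difference of -1.13 with a treated difference of 0.88 (adjusted p = 0.0999). Its pool level was 9.69, 9.95 and 10.12 in CAR/PXR-deficient arrays, against 10.62, 11.09 and 11.28 in WT arrays.

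Mm133 and Mm027 had the larger difference in the pool in the other direction. Their pool levels were higher in CAR/PXR-deficient arrays by 0.70 and 0.54 with no overlap, while the treated levels differed by 0.18 and -0.22 (adjusted p = 0.555 and 0.539). Pool arrays did not overlap for 20 of the 80 tested probes (25%). Since each pool was 1 RNA repeated on its arrays, this covers only the spread between arrays. Mm042 differed by -0.34 in the pool and by 0.07 in the treated level. On the side of the treated livers, Mm157 differed by -0.49 in the treated level (adjusted p = 0.106) and by 0.01 in the pool, and Mm102 by -0.33 (adjusted p = 0.292) and 0.08. Mm052, which missed the threshold in the response, differed by -0.20 in the treated level and by 1.09 in the pool, from 2 CAR/PXR-deficient and 4 WT arrays.

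**Figure D4:**
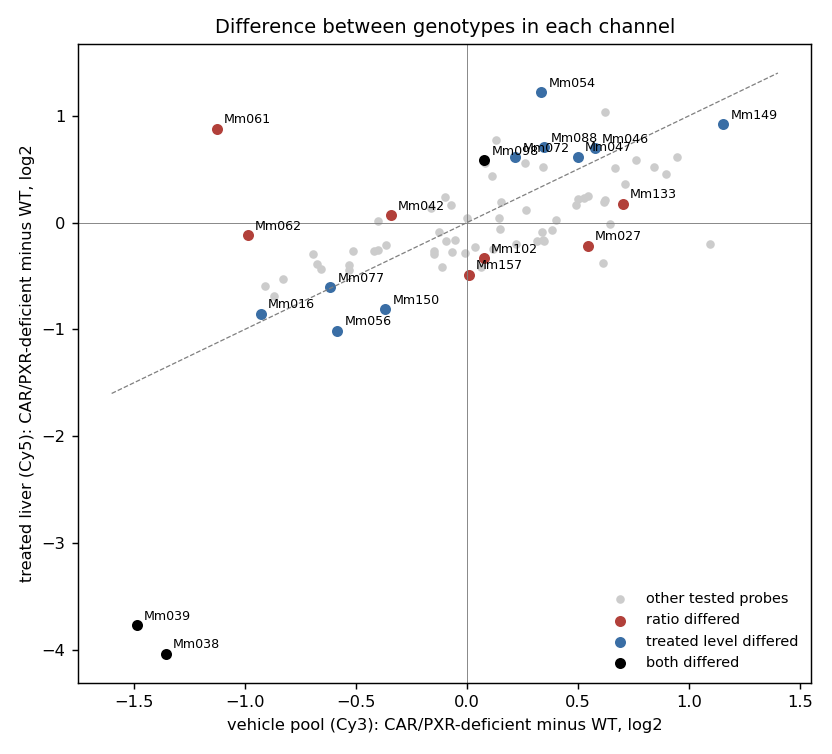
Difference in normalized log2 level, CAR/PXR-deficient minus WT, in the treated livers (vertical axis) and in the vehicle pools (horizontal axis) for each tested probe. Points on the dashed line differ equally in both channels. The levels left out only the most severe flag, while the response used only unflagged spots. The gap between the channels is therefore not exactly the difference in response. Mm061 and Mm062 lie to the left at pool differences of -1.13 and -0.99, and Mm038 and Mm039 lie near -4 in the treated livers.

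Mice that lack only CAR or only PXR were hybridised in the same way, 6 arrays each, and show where the loss of both receptors differs from the loss of either. The response in CAR/PXR-deficient livers differed from that in CAR-deficient livers for 6 of 78 tested probes (7.69%), 1 higher (1.28%) and 5 lower (6.41%). It differed from that in PXR-deficient livers for 26 of 80 (32.5%), 11 higher (13.8%) and 15 lower (18.8%). With spike-in centring these splits became 8 higher and 0 lower against CAR-deficient livers, and 30 higher and 4 lower against PXR-deficient livers; in the deposited table they were 17 and 0, and 34 and 3. Against WT livers, 1 of 78 probes (1.28%), Mm039, passed in CAR-deficient livers, where 21 had an unadjusted p under 0.05, and 15 of 80 (18.8%) in PXR-deficient livers. These comparisons share the CAR/PXR-deficient or the WT arrays, so the counts are not independent.

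Mm062 and Mm027 differed from both single deficiencies. The Mm062 response averaged 0.40 in CAR/PXR-deficient livers, against -0.10 ± 0.10 (SD, n = 6) in CAR-deficient and -0.22 ± 0.32 (n = 5) in PXR-deficient livers (adjusted p = 0.0312 and 0.00175). Mm027 averaged -0.64 in CAR/PXR-deficient livers, against 0.05 ± 0.15 in CAR-deficient and 0.52 ± 0.45 in PXR-deficient livers (adjusted p = 0.0437 and 0.000310). Mm014 and Mm002 also differed from both, by -0.90 and -0.60 against CAR-deficient and by -0.86 and -0.68 against PXR-deficient livers, but not from WT livers (adjusted p = 0.273 and 0.211). Under median centring no probe passed against CAR-deficient livers, and 16 had an unadjusted p under 0.05.

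The strong WT responses of Mm038 and Mm039 were also present in livers that lack PXR alone. Mm038 averaged 3.43 ± 0.62 and Mm039 3.05 ± 0.48 in PXR-deficient livers (SD, n = 5 each), and the difference of CAR/PXR-deficient from PXR-deficient livers was -3.53 and -3.27 (adjusted p = 9.58e-05 and 7.97e-05). In CAR-deficient livers Mm038 had no usable ratio, and Mm039 gave 0.00 and 0.14 on 2 arrays. The Mm039 response in CAR/PXR-deficient livers differed from that by -0.29, which did not pass (adjusted p = 0.807). Against WT livers, Mm039 in CAR-deficient livers differed by -2.59 (SE 0.49, adjusted p = 0.0065). Its low response was thus also seen in livers that lack CAR alone, from those 2 arrays. Mm061 averaged 1.43 in CAR/PXR-deficient livers, against 0.43 ± 0.51 in CAR-deficient (adjusted p = 0.0729) and 0.33 ± 0.53 in PXR-deficient livers (adjusted p = 0.0243). Mm133 and Mm102 differed from PXR-deficient livers by -1.10 and 0.61 (adjusted p = 7.97e-05 and 0.000901), and Mm102 averaged -0.63 ± 0.08 there. Mm098, Mm042 and Mm157 passed against neither single deficiency.

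**Figure D5:**
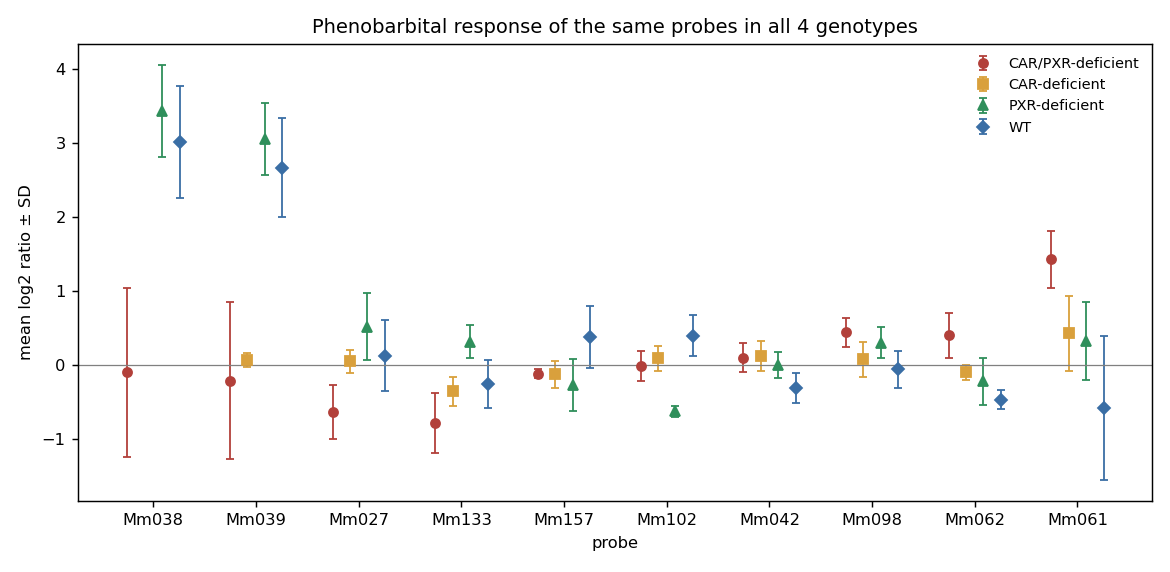
Mean log2 response ± SD of the 10 probes in CAR/PXR-deficient, CAR-deficient, PXR-deficient and WT livers, from left to right within each probe; CAR-deficient livers have no value for Mm038 and 2 for Mm039. For Mm038 and Mm039 the PXR-deficient means (3.43 and 3.05) lie beside the WT means, and for Mm061 and Mm062 the CAR/PXR-deficient mean is the highest.

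The replicates of the 2 groups compared varied by a similar amount in the response, with a median SD over the tested probes of 0.30 in CAR/PXR-deficient livers and 0.32 in WT livers. It was lower, at 0.20 and 0.25, in the CAR-deficient and PXR-deficient livers that shared the fit. In the treated level the median SD was 0.30 in CAR/PXR-deficient livers and 0.45 in WT livers. The most variable WT response was that of Mm001, which lay between -0.24 and 0.32 on CAR/PXR-deficient arrays, against 1.48 and 1.64 on WT replicates 2 and 6 and -1.18 to -0.41 on the other 4 WT arrays. Its genotype means differed by -0.08 (SE 0.34, adjusted p = 0.856), and the opposite groups of WT arrays cancel in that mean. Mm001 and Mm061 thus both set WT replicates 2 and 6 apart, in opposite directions.

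Of the 40 probes that were not tested, 4 were above background on no array of either genotype. In the treated channel 7 of the 40 were above background on more than 3 CAR/PXR-deficient arrays, and none was on more than 3 WT arrays. Among the tested probes, 61 were above background in the treated channel on all 6 CAR/PXR-deficient arrays, against 31 on all 6 WT arrays. The part of this gap in the differences above was not tested.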

How the data were processed

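Liver RNA was measured on 24 two-colour arrays, 6 per genotype, and samples were grouped by their labels. Per the file headers, the deposited spot files hold spot and local background pixel intensity for both channels, a percent value for saturated pixels and a score used as a spot flag. No source used here names the scanner or says what the flags mean. The values of the deposited table were log2 ratios, judged from their correlation with the scanner ratios (r from 0.78 to 0.99 on these 12 arrays); how the authors centred them is not stated, and the table served as an alternative.

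With R 4.3.3 and limma 3.58.1, mean intensities were background-corrected (normexp, offset 50) and normalized by loess, fitted to the unflagged spots of mouse probes (controls had weight 0). Ratios averaged the unflagged copies of a probe. A group-means fit (lmFit, eBayes) over 23 samples gave all adjusted p-values (Benjamini-Hochberg, 0.05, over all tested probes). The arrays of PXR-deficient replicates 1 and 2 agreed within spot noise (variance ratio 1.04), so both entered as 1 sample. Channel levels came from loess and Aquantile normalization, leaving out only the most severe flag; the pool was not tested. Most same-numbered CAR/PXR-deficient and WT arrays did not deviate together (2 of 6 pairs with r over 0.1, range -0.25 to 0.68). Only replicate 4 (r = 0.68) matched its own number best, so numbers were not treated as pairs. The fit was tested on simulated data. Figures used Python 3.11.15 and matplotlib 3.10.9.

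Probes named are every probe past the threshold in the response or the treated level, the 5 nearest misses and the probes with a response past the threshold in either genotype that the text cites; Mm001, Mm002 and Mm014 among others were chosen after their values were seen. The comparison and its lists were chosen with earlier results of these data known. Planned gene lists, cell type markers and receptor checks could not be run, since no table used here pairs probes with genes. Alternatives to background, normalization, filters, flags, samples, weights and blocks are reported after the results.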

Additional observations from a re-analysis of the deposited data

Results flagged for a closer look

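The difference in response between CAR/PXR-deficient and WT livers passed the test for 10 probes, and each is listed here because its ratio differed between genotypes. Each genotype had 1 vehicle pool, so the test leaves out the spread between vehicle animals. Whether the effect of phenobarbital differed apart from that spread was not tested. It was 2.004 for Mm061, 0.87 for Mm062, 0.50 for Mm098 and 0.41 for Mm042. It was -3.11 for Mm038, -2.88 for Mm039, -0.76 for Mm027, -0.53 for Mm133, -0.49 for Mm157 and -0.41 for Mm102. The values of Mm038 and Mm039 rest on 3 CAR/PXR-deficient arrays.

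Mm030 had a sample far from the others: CAR/PXR-deficient replicate 6 had a response of 0.0435, against 0.287 for the next lowest array. It was the only such sample among 53 groups of values examined, of which chance flags about 5%.

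Mm138 was left out of the tests as too dim, but its treated channel was above background on 4 CAR/PXR-deficient arrays and 0 WT arrays. Of the 40 probes not tested, 7 were above background in this channel on more than 3 CAR/PXR-deficient arrays, and 0 on more than 3 WT arrays. Mm032 and Mm095 were so on 6 CAR/PXR-deficient arrays and 1 WT array each. CAR/PXR-deficient arrays had a median of 93 probes above background, against 56 on WT arrays. The usable responses of Mm138 on 5 CAR/PXR-deficient arrays ran from -0.31 to 0.62.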

How the results depend on the processing

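Alternatives were run on the responses, the treated levels and the pools; those on array position, on spike-ins or table without CAR/PXR-deficient replicates 1 and 2, and without WT replicates 2 and 6 were chosen after seeing the data. A slide block was not run, since the files name no slide. Against WT, 10 responses passed; this became 16 (8 higher, 8 lower) with median centring, 5 with print-tip loess, 4 with only the groups compared, 6 without CAR/PXR-deficient replicates 1 and 2, and 5 at the far and 4 at the near array position (1 WT array there, assumed to vary like the other groups). It became 74 with spike-in centring, 61 in the deposited table, 18 in that table after median centring (12 higher, 6 lower), and 62 and 57 with spike-ins and table without CAR/PXR-deficient replicates 1 and 2. Leaving out 1 array gave 5 to 14, with 5, 6 and 6 without CAR/PXR-deficient replicate 1, 2 or 3. With spike-ins and in the table the difference turned positive for Mm027 (0.26, 0.58), Mm102 (1.05, 1.46), Mm133 (0.97, 1.21), Mm157 (0.71, 1.20) and Mm015 (1.02, 1.36); without CAR/PXR-deficient replicates 1 and 2 it was 0.64 and 0.80 for Mm102, 0.54 and 0.54 for Mm133, 0.30 and 0.53 for Mm157, 0.62 and 0.74 for Mm015, and 0.13 for Mm027 in the table. Mm027 was 0.013 at the near position. Mm061 passed in all 38 alternatives and Mm062 in 37 (adjusted p = 0.123 at the near position). Mm038 and Mm039 passed in 34 of 37 each and missed in the table, with and without those replicates, and at the near position. The other 6 calls held less often. With the same direction, Mm098 passed in 33 of 38, Mm027 in 29, Mm042 in 21, Mm102 in 14, Mm157 in 13 and Mm133 in 11. Leaving out 1 array lost Mm133 and Mm157 in 9 of 12 runs each, Mm102 in 6, Mm042 in 5, Mm027 in 1 and Mm098 in 0. The CAR/PXR-deficient response passed for 74 probes with spike-ins and 74 in the table, for 54 and 64 without replicates 1 and 2, and for 13 when that group was fitted alone; the WT response passed for 3 in the table and 12 alone. Against CAR-deficient livers 0 passed with median centring (16 unadjusted) and 17 in the table. The 13 treated-level calls became 20, 21 and 20 with quantile normalization of Cy5, of both channels, and median centring (16 of each higher), 8 with no filter, 4 with WT replicates 2 and 6 counted once, 5 without both, 4 without CAR/PXR-deficient replicates 1 and 2, 5 with array weights and 2 at the far position. Leaving out 1 array gave 3 to 21, by over 1.5 times for CAR/PXR-deficient replicates 1 to 5 and WT replicates 1, 2, 4, 5 and 6; treated Mm038 and Mm039 passed in all 28 alternatives with a value. The pool count of 5 became 13 with median centring. Where calls moved, the cause was not tested. The replicate number as a block, for numbers that do not pair the samples, gave 14 responses (6 higher, 8 lower) and 14 treated levels. Missing ratios limit what could be measured: 41 of 80 probes had a ratio on all 6 WT arrays.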
